A study of Mus musculus with 27 samples.

Results

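Macrophages grown from irradiated bone marrow and held in the IL-4 state were compared with macrophages that received IL-4 without irradiation. The irradiated side comprised 6 of the 18 irradiated libraries, 3 FLASH and 3 standard, and the non-irradiated side comprised the 3 libraries labelled M2, of 27 libraries in all. Because 5 irradiated libraries, all numbered replicate 1, held values at odds with their labels, the irradiated libraries were chosen by the measured level of a pair of genes. A library was put in the LPS state at 500 CPM or more of Irg1, otherwise in the IL-4 state at 100 CPM or more of Arg1, and otherwise in the control state. CPM values are read counts relative to the depth of the library, scaled so that libraries of different depth can be set side by side. Non-irradiated libraries kept their labels.

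All libraries came from bone marrow of the femur and tibia of C57BL/6 mice, and all cells were differentiated for 7 days with CSF-1 (10 ng/ml), the growth factor that drives macrophage formation. FLASH cells had received 5 Gy of protons as FLASH, which is radiation delivered at an ultra-high dose rate, standard cells 5 Gy of standard protons, and non-irradiated cells no dose. The dose was given to bone marrow cells before differentiation, not to finished macrophages. Afterwards the cells were kept for 2 days with IL-4 (20 ng/ml, labelled M2), LPS (100 ng/ml, labelled M1) or control medium (M0), and their RNA was sequenced in bulk.

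IL-4 signals through its receptor to the transcription factor STAT6 and turns macrophages towards alternative activation, with arginase 1, resistin-like molecule alpha, lectins and MHC class II among its targets. Ionising radiation breaks DNA and activates p53, which raises genes of cell cycle arrest. Type I interferon raises a large set of antiviral genes, many of which carry an interferon-stimulated response element in their promoters.

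The genes used by the rule separated the libraries widely. Arg1, arginase 1, had 655, 631 and 827 CPM in FLASH and 643, 679 and 1057 CPM in standard libraries, against 713, 653 and 161 CPM in non-irradiated ones. The irradiated library with the highest Arg1 outside the IL-4 state had 12.2 CPM. Irg1, an LPS-induced gene of itaconate synthesis, reached 30.9 CPM in the 6 irradiated libraries and 30.3 CPM in the non-irradiated ones, while the lowest irradiated LPS-state library had 1282 CPM. As these values chose the libraries, they are a description and were not tested.

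Of the 6 irradiated libraries 4 were labelled M2, while FLASH replicate 1 was labelled M0 and standard replicate 1 was labelled M1. The FLASH and standard libraries labelled M2 with replicate number 1 had 1557 and 1715 CPM of Irg1 with 6.81 and 8.73 CPM of Arg1, and fell in the LPS state. FLASH replicate 1 labelled M1, the other discordant library, fell in the control state. Results are also given with the states taken from the labels alone and without these 5 libraries.

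Depth was similar in the groups, with 22.5 to 24.9 M assigned reads in the irradiated libraries and 21.4 to 25.8 M in the non-irradiated ones. Mitochondrially encoded transcripts made up 1.28% to 1.41% of the irradiated libraries and 0.957% to 1.21% of the non-irradiated ones. Macrophage markers were high on both sides: Csf1r, the CSF-1 receptor, had 1022 to 1423 CPM (median 1208) in irradiated libraries, against 1638, 1398 and 1281 CPM in non-irradiated ones (log2 change -0.26 ± 0.20, adjusted p = 0.426), and Emr1, which encodes F4/80, averaged 1089 ± 129 CPM in irradiated and 743 ± 293 CPM in non-irradiated libraries (SD; log2 change 0.63 ± 0.25, adjusted p = 0.104). Neither Csf1r nor Emr1 was called, but the macrophage markers Mertk and Cd68 were called higher in irradiated libraries. The call of Cd68 was lost with states from the labels alone and without the 5 discordant libraries. Non-irradiated replicate 3 stood apart from its group in Arg1, in the proliferation gene Mki67 (14.7 CPM, against 51.3 and 83.1 CPM in replicates 1 and 2) and in Pltp (1052 CPM, against 372 and 278 CPM). Each replicate number carries a numeric tag in the sample titles that all arms and states share, so that same-numbered libraries may have been handled together. The labels do not say what the tag stands for, nor that replicates came from separate cultures or animals. The p-values therefore measure only the spread within the groups of the 27 libraries, which may be technical.

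Of 13297 genes tested, 1725 differed between irradiated and non-irradiated macrophages of the IL-4 state at an adjusted p below 0.05 (limma, Benjamini-Hochberg), and 955 did without non-irradiated replicate 1. Of the 1725, 930 were higher in irradiated macrophages (6.99% of genes tested) and 795 were lower (5.98%). With states from the labels alone these shares were 1.43% and 1.57%, and without the 5 discordant libraries 6.90% were called in either direction. Counts of list members are to be read beside the share of the same setting, and a list share near it is no result about the list. Standard errors and p-values rest on the spread within all 9 groups of the fit of 27 libraries, not only within the compared ones. A log2 change is the irradiated minus the non-irradiated mean of log2(CPM + 0.5), given with its standard error. It reached 1 in size in 166 of the higher and 179 of the lower genes, and its median over all genes was -0.01. Across all genes, 14.8% had no overlap between the 6 and the 3 libraries, as did 734 of the higher and 596 of the lower called genes.

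**Figure D1:**
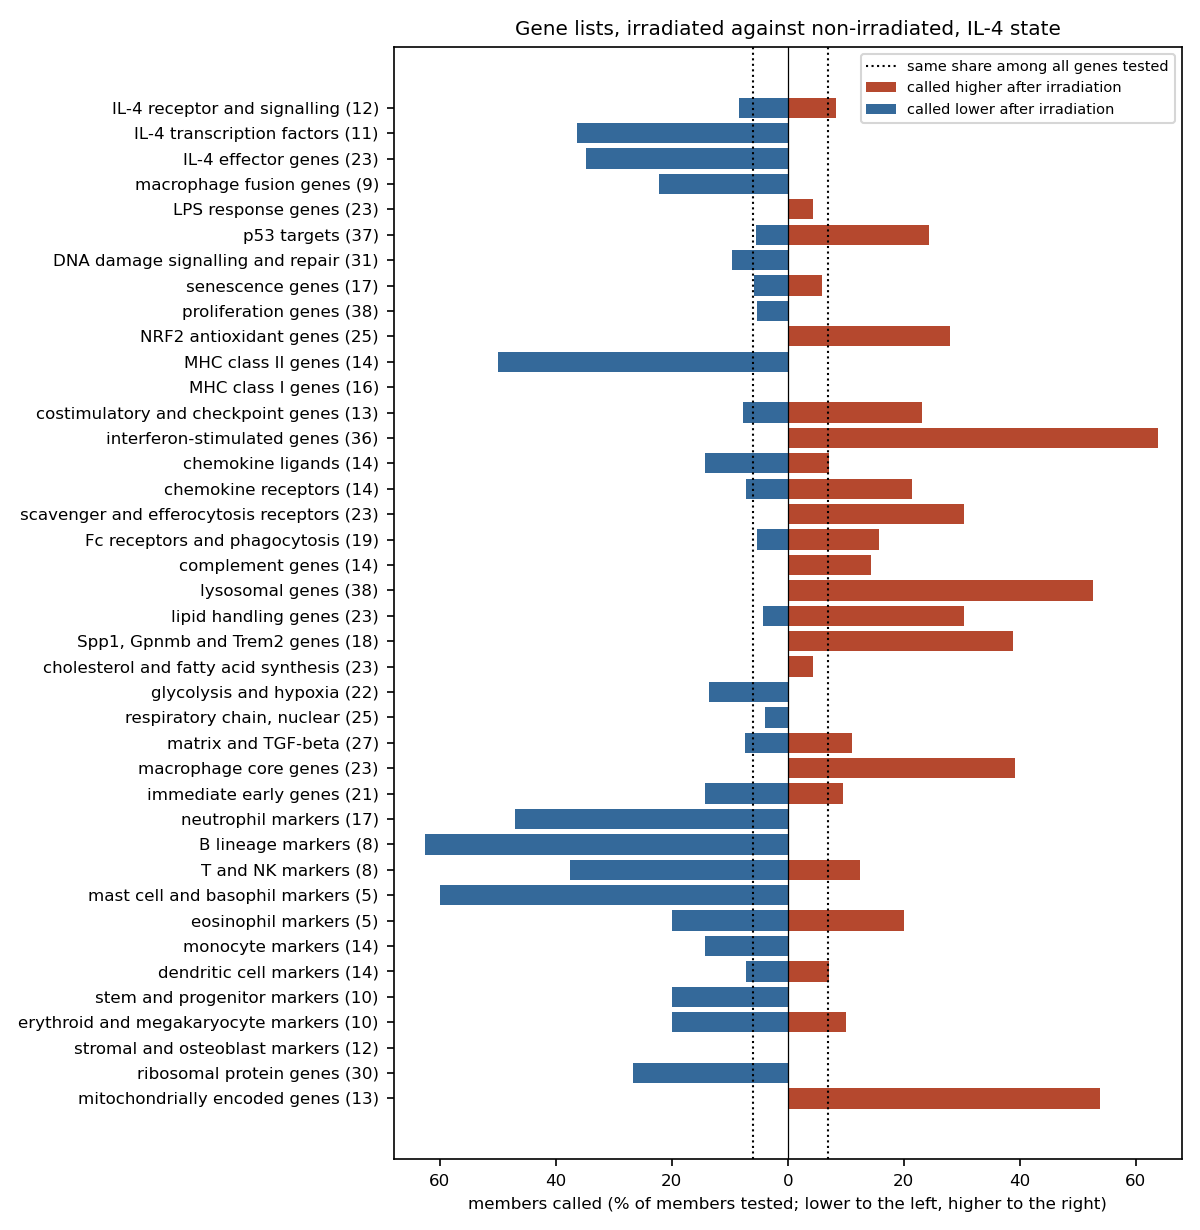
Share of each gene list called higher (right) or lower (left) in irradiated than in non-irradiated IL-4-state macrophages, in percent of the members tested. The dotted lines mark the share among all genes tested, 6.99% higher and 5.98% lower; interferon-stimulated, mitochondrially encoded and lysosomal genes reach farthest to the right, and B lineage, mast cell and basophil, and MHC class II genes farthest to the left.

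Genes of the p53 response rose in part. Of 37 p53 targets tested, 9 rose and 2 fell, with a median log2 change of 0.19. Phlda3, an inhibitor of Akt, had 140.0, 163 and 117 CPM in FLASH and 143, 133 and 139.6 CPM in standard libraries, against 44.5, 46.8 and 43.5 CPM in non-irradiated ones. The groups lay far apart, and the spread within each was small (log2 change 1.62 ± 0.11, adjusted p = 7.61e-09). Cdkn1a, which encodes the cell cycle inhibitor p21, had 787, 858 and 527 CPM in FLASH and 726, 765 and 630.0 CPM in standard libraries, against 317, 301 and 353 CPM in non-irradiated ones (log2 change 1.13 ± 0.13, adjusted p = 8.8e-06). Again every irradiated library lay above every non-irradiated one. Ccng1, cyclin G1, averaged 382 ± 17.4 CPM in irradiated and 230.2 ± 30.4 CPM in non-irradiated libraries (SD, n = 6 and 3), and its libraries did not overlap (log2 change 0.74 ± 0.09, adjusted p = 1.98e-05). The other raised targets were Trp53inp1, Zmat3, Gadd45a, Psrc1, Sesn1 and Tnfrsf10b. The count of raised targets was also 9 with the states from the labels alone and 9 without the 5 discordant libraries, in each case with 8 of the targets named here, without Sesn1 and with Mdm2. It was 7 to 10 when 1 library was left out in turn.

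Mdm2, Trp53 and Fdxr changed calls with the libraries used. Mdm2, the ubiquitin ligase that limits p53, had 158 to 300.1 CPM (median 197) in irradiated libraries, against 128, 163 and 121 CPM in non-irradiated ones, so that the groups overlapped and the gene was not called (log2 change 0.62 ± 0.22, adjusted p = 0.0681). It was called higher with states from the labels alone (adjusted p = 0.0347, limma) and without the 5 discordant libraries (0.81, adjusted p = 0.0348). Trp53, which encodes p53 itself, had 44.6 to 53.6 CPM (median 48.5) in irradiated libraries, against 61.8, 67.0 and 52.1 CPM in non-irradiated ones and was called lower (log2 change -0.31 ± 0.08, adjusted p = 0.0124; call lost without non-irradiated replicate 1 or non-irradiated replicate 2, adjusted p 0.0674 to 0.105). Fdxr, a p53-induced mitochondrial reductase, was the other lower target (-0.51 ± 0.17, adjusted p = 0.0477; call lost when any of 6 of the 9 libraries was left out, adjusted p 0.0809 to 0.17). Neither was called with states from the labels alone (adjusted p = 0.504 for Trp53 and 0.103 for Fdxr) or without the 5 discordant libraries (adjusted p = 0.0889 and 0.208, limma). Of 31 genes of DNA damage signalling and repair, 0 rose and 3 fell (9.68%, beside 5.98% of all genes called lower). H2afx, which encodes histone H2AX, had 16.7 to 22.5 CPM (median 20.4) in irradiated libraries, against 51.2, 44.8 and 31.6 CPM in non-irradiated ones, without overlap (log2 change -1.06 ± 0.18, adjusted p = 0.000418). The checkpoint kinase gene Chek1 and Parp2 were the other fallen genes, with overlapping groups (-1.22 ± 0.36, adjusted p = 0.028 and -0.38 ± 0.12, adjusted p = 0.0365). The count of fallen repair genes was 1 without FLASH replicate 1, 1 without non-irradiated replicate 1 and 8 without non-irradiated replicate 3. Of 17 senescence genes 5.88% were called in each direction, near the shares over all genes (6.99% higher, 5.98% lower). Timp2 rose (0.54 ± 0.14, adjusted p = 0.0147, call lost without non-irradiated replicate 2, adjusted p = 0.101). Hmga1 fell (-0.40 ± 0.12, adjusted p = 0.0266, call lost when any of 4 of the 9 libraries was left out, adjusted p 0.0536 to 0.125).

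**Figure D2:**
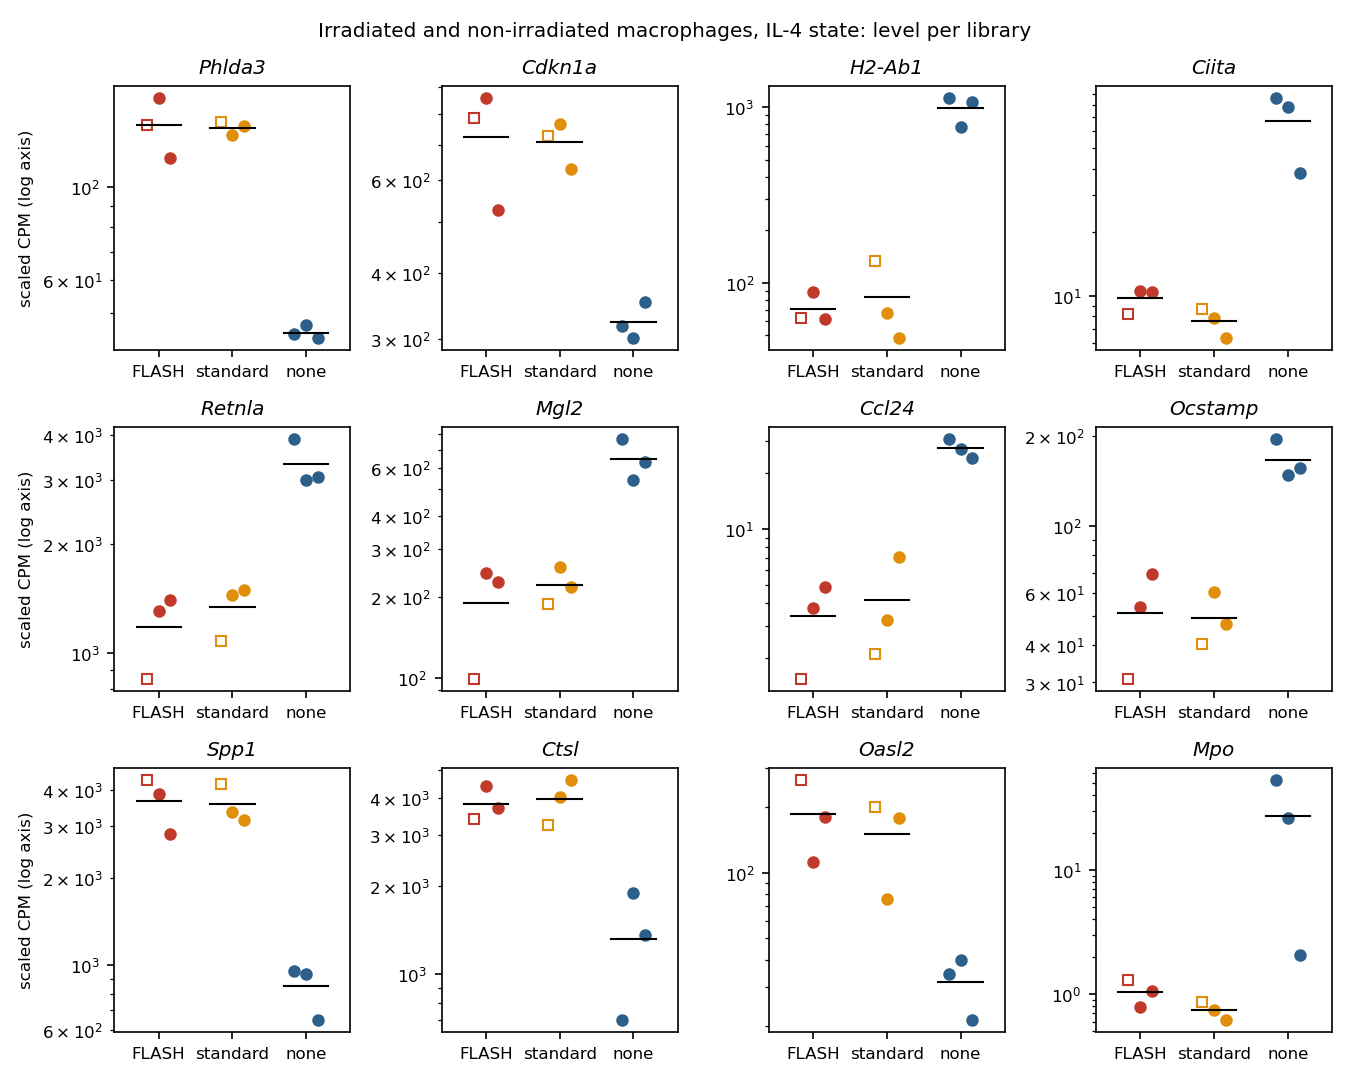
Level of 12 genes in each IL-4-state library, in scaled CPM on a log axis, for FLASH, standard and non-irradiated macrophages; open squares are the 2 irradiated libraries with another label, and lines are group means. Phlda3, Cdkn1a, Spp1, Ctsl and Oasl2 lie higher in all 6 irradiated libraries, and H2-Ab1, Ciita, Retnla, Mgl2, Ccl24, Ocstamp and Mpo lie lower in all 6.

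MHC class II genes, which present antigen to CD4 T cells, were lower in irradiated macrophages and included the lowest log2 changes among the named genes. Of 14 tested, 7 fell and 0 rose, and 0 had a log2 change above 0 (median -1.22). H2-Ab1, the beta chain of I-A, had 62.7, 88.0 and 61.9 CPM in FLASH and 133, 67.0 and 48.1 CPM in standard libraries, against 1126, 774 and 1069 CPM in non-irradiated ones. The highest irradiated library, standard replicate 1, was still several-fold below the lowest non-irradiated one (log2 change -3.74 ± 0.35, adjusted p = 5.09e-07). H2-Aa, the alpha chain, had 39.2 to 108 CPM (median 53.6) in irradiated libraries, against 935, 643 and 808 CPM in non-irradiated ones (log2 change -3.73 ± 0.31, adjusted p = 1.35e-07). Cd74, the invariant chain that guides class II through the cell, had 273 to 587 CPM (median 360.4) in irradiated libraries, against 3515, 2919.5 and 3647 CPM in non-irradiated ones (log2 change -3.10 ± 0.31, adjusted p = 1.17e-06). Neither gene had overlapping groups.

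Ciita, the transactivator on which class II transcription depends, had 8.26, 10.6 and 10.4 CPM in FLASH and 8.65, 7.90 and 6.30 CPM in standard libraries, against 86.2, 77.8 and 38.3 CPM in non-irradiated ones. It was lower in all 6 irradiated libraries, and non-irradiated replicate 3 was the lowest of its group (log2 change -2.82 ± 0.40, adjusted p = 7.03e-05). H2-DMb1, a chain of the peptide loading protein H2-M, had 59.0 to 78.7 CPM (median 63.8) in irradiated libraries, against 250.4, 239 and 218 CPM in non-irradiated ones (log2 change -1.81 ± 0.14, adjusted p = 2.22e-08). H2-Eb1, the beta chain of I-E, was near the lower end of detection, with 0.130 to 0.946 CPM (median 0.171) in irradiated libraries, against 1.86, 1.92 and 2.99 CPM in non-irradiated ones (log2 change -1.85 ± 0.30, adjusted p = 0.000262). H2-DMb2 was the other called member. The count of fallen genes was 7 with states from the labels alone, 7 without the 5 discordant libraries, and 7 to 8 when 1 library was left out in turn.

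Other cells of the marrow also carry class II, and their markers were examined. Of 8 B lineage markers 5 fell and 0 rose, with sums of 7.52 to 23.9 CPM in irradiated and 33.8 to 67.3 CPM in non-irradiated libraries; none of these markers was at 0 in all 9 libraries. Of 14 dendritic cell markers 1 fell, Batf3, and 1 rose, Bst2, with sums of 320.3 to 543 CPM in irradiated and 356 to 598 CPM in non-irradiated libraries. The median log2 change was -0.59, and 3 of the 14 were above 0. Bst2, also counted among the interferon-stimulated genes, made up a large part of the sums in irradiated libraries. It averaged 205 CPM in FLASH, 178 CPM in standard and 83.1 CPM in non-irradiated libraries, so the sums say little about the other markers. Neither call was firm (Batf3 call lost when any of 5 of the 9 libraries was left out, adjusted p 0.0627 to 0.121; Bst2 call lost without non-irradiated replicate 3, adjusted p = 0.0999), and 0 markers of the list were called with states from the labels alone or without the 5 discordant libraries. The class II genes summed to 454 to 939.7 CPM in irradiated and 4701 to 5947 CPM in non-irradiated libraries. The part of these cells in the class II result was not tested, and in bulk RNA fewer cells of a type cannot be told apart from less RNA per cell.

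Class II promoters carry a Y box, an inverted CCAAT element bound by NF-Y. Promoter windows from 250 bases before to 50 after the gene start (RefSeq, GRCm38.p6) were found for 9903 of the genes tested. The letters CTGATTGG on either strand stood in 2 of 4 fallen class II genes with a window and in 2 of 6 that were not called, against 6.52% of all windows. H2-Aa (chr17:34287774-34288073, minus strand) and H2-Eb1 (chr17:34305617-34305916, plus strand) are shown because both genes fell and both windows hold these letters, in capitals.
H2-Aa: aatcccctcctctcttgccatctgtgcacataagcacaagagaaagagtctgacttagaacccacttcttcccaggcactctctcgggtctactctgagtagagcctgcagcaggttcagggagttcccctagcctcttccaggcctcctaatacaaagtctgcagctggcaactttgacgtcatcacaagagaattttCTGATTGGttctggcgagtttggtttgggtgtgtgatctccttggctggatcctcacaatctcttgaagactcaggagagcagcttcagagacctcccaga
H2-Eb1: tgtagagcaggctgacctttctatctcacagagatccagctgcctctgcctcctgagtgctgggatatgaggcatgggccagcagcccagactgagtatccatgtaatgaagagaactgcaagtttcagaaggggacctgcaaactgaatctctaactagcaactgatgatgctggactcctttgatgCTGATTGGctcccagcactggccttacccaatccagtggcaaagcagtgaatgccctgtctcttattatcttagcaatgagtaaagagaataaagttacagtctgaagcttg

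No MHC class I gene passed the test. Of 16 tested, 0 were called in either direction, and the median log2 change was 0.04. The member with the smallest p, the loading factor gene Tapbp, had an adjusted p of 0.096 (limma). H2-K1, a class I heavy chain, had 907 to 1414 CPM (median 1157) in irradiated libraries, against 1145, 1212 and 1195 CPM in non-irradiated ones (log2 change -0.02 ± 0.18, adjusted p = 0.964). B2m, the light chain, had 1496 to 2421 CPM (median 1982) in irradiated libraries, against 1433, 1859 and 1604 CPM in non-irradiated ones (log2 change 0.28 ± 0.16, adjusted p = 0.291). For both, the non-irradiated libraries lay within or beside the irradiated range.

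IL-4 effector genes were affected unevenly. Of 23 tested, 8 fell (Ccl24, Rnase2a, Retnla, Flt1, Mgl2, Pdcd1lg2, Car2 and Clec10a) and 0 rose, with a median log2 change of -0.37. Retnla, resistin-like molecule alpha, had 848, 1306 and 1402 CPM in FLASH and 1081, 1444 and 1497 CPM in standard libraries, against 3892, 3007 and 3064 CPM in non-irradiated ones. All irradiated libraries were lower, and in each arm the library with another label was the lowest (log2 change -1.41 ± 0.27, adjusted p = 0.00138; without the 5 discordant libraries -1.23, adjusted p = 0.00771). Mgl2, a galactose-binding lectin, had 98.5, 244 and 226 CPM in FLASH and 187, 257 and 218 CPM in standard libraries, against 769, 543 and 632 CPM in non-irradiated ones. Here too the library with another label was the lowest of each arm, and no irradiated library reached the non-irradiated range (log2 change -1.71 ± 0.35, adjusted p = 0.00232; without the 5 discordant libraries -1.44, adjusted p = 0.0287). Ccl24, an eosinophil-attracting chemokine, had 1.54, 3.76 and 4.88 CPM in FLASH and 2.12, 3.24 and 7.09 CPM in standard libraries, against 30.6, 27.2 and 24.2 CPM in non-irradiated ones (log2 change -2.83 ± 0.32, adjusted p = 4.33e-06). It had the lowest log2 change of the named effector genes.

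Rnase2a, an eosinophil-associated ribonuclease of mice, had 92.5 to 147 CPM (median 99.7) in irradiated libraries, against 307, 253 and 319 CPM in non-irradiated ones (log2 change -1.46 ± 0.24, adjusted p = 0.000261). Pdcd1lg2, the checkpoint ligand PD-L2, had 11.0 to 22.4 CPM (median 18.6) in irradiated libraries, against 43.9, 44.4 and 64.3 CPM in non-irradiated ones (log2 change -1.51 ± 0.34, adjusted p = 0.00425). Neither had overlapping groups. Chil3, the chitinase-like protein Ym1, had 5814 to 7426 CPM (median 6346) in irradiated libraries, against 3716, 4809.9 and 5771 CPM in non-irradiated ones. All 6 irradiated libraries lay above the non-irradiated ones, but the gene was not called (log2 change 0.45 ± 0.42, adjusted p = 0.541). Its standard error also draws on groups outside this comparison, among them non-irradiated control libraries with 399 ± 454 CPM (SD). Mrc1, the mannose receptor, had 1363 to 1716 CPM (median 1487) in irradiated libraries, against 1083, 1021 and 920.0 CPM in non-irradiated ones, likewise without overlap and without a call (log2 change 0.59 ± 0.20, adjusted p = 0.0607). The count of fallen effector genes was 6 to 9 when 1 library was left out in turn, 6 without the 5 discordant libraries and 1 with states from the labels alone.

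A STAT6 recognition sequence, TTC and GAA with 4 bases of any kind between them, on either strand, stood in the promoter window of 2 of 5 fallen effector genes and of 4 of 12 that were not called, against 6.58% of all windows. Retnla (chr16:48842359-48842658, plus strand) is shown as a marker of the IL-4 state that fell, with these letters in capitals.
Retnla: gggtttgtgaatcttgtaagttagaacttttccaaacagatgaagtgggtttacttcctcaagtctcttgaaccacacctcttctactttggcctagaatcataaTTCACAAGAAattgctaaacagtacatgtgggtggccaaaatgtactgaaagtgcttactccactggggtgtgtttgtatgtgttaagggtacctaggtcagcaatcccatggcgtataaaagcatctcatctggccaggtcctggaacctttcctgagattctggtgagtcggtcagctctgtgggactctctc

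Neither the receptor chain for IL-4 nor its transducer passed the test. Il4ra, the receptor chain that binds IL-4, had 18.9 to 28.1 CPM (median 24.4) in irradiated libraries, against 28.0, 29.6 and 25.0 CPM in non-irradiated ones (log2 change -0.23 ± 0.11, adjusted p = 0.17). Stat6 had 199 to 292 CPM (median 219) in irradiated libraries, against 199, 183 and 267 CPM in non-irradiated ones (log2 change 0.09 ± 0.12, adjusted p = 0.685). The groups overlapped for both. Of 12 genes of IL-4 reception and signalling 8.33% were called in each direction, near the shares over all genes (6.99% higher, 5.98% lower). The kinase gene Jak1 rose (0.22 ± 0.06, adjusted p = 0.0134, call lost without non-irradiated replicate 1, adjusted p = 0.0858). Socs2, a suppressor of cytokine signalling, was the one that fell (-1.07 ± 0.30, adjusted p = 0.0212; call lost without non-irradiated replicate 1, non-irradiated replicate 2 or non-irradiated replicate 3, adjusted p 0.0518 to 0.0742).

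Of 11 transcription factors linked to IL-4, 4 fell (Klf4, Rbpj, Batf3 and Myc) and 0 rose. Klf4, which cooperates with STAT6, had 29.1 to 54.6 CPM (median 38.7) in irradiated libraries, against 83.7, 61.1 and 96.6 CPM in non-irradiated ones, without overlap (log2 change -1.03 ± 0.20, adjusted p = 0.00126). Irf4 had 37.1 to 50.0 CPM (median 45.6) in irradiated libraries, against 89.7, 72.6 and 76.2 CPM in non-irradiated ones. It was lower in all 6 irradiated libraries but was not called (log2 change -0.81 ± 0.33, adjusted p = 0.112). The count of fallen factors was 1 without non-irradiated replicate 3, and 2 without non-irradiated replicate 1 or 2, FLASH replicate 1 or standard replicate 3. It was 1 without the 5 discordant libraries and 0 with states from the labels alone.

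Fusion of macrophages into giant cells is driven by IL-4 and requires the membrane proteins OC-STAMP and DC-STAMP. Ocstamp had 30.7, 53.6 and 69.4 CPM in FLASH and 40.5, 60.4 and 47.2 CPM in standard libraries, against 196, 148 and 156 CPM in non-irradiated ones. Each irradiated library was below every non-irradiated one (log2 change -1.76 ± 0.21, adjusted p = 8.57e-06). Dcstamp had 21.2 to 42.2 CPM (median 33.2) in irradiated libraries, against 115, 130.3 and 132 CPM in non-irradiated ones, also without overlap (log2 change -2.03 ± 0.45, adjusted p = 0.00428). These were the 2 called genes of 9 fusion genes tested, and the median of the list was -0.16. Both were called without the 5 discordant libraries. With states from the labels alone neither was called, although the log2 changes were further from 0 (Ocstamp -3.10, adjusted p = 0.154; Dcstamp -3.53, adjusted p = 0.105). Calcr, listed with them, was at 0 in all 9 libraries and was not tested.

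Many interferon-stimulated genes were higher in irradiated macrophages, and their count depended on the libraries used. Of 36 tested, 23 rose and 0 fell, with a median log2 change of 1.20. Their promoter windows are shown first for Rsad2 (chr12:26456403-26456702, minus strand), which encodes the antiviral protein viperin, and Isg15 (chr4:156200769-156201068, minus strand), a ubiquitin-like modifier, because both rose and both hold the core of the interferon-stimulated response element. The core, GAAA and a second GAAA with 2 bases of any kind between them, on either strand, is in capitals, and in Isg15 it has 3 overlapping matches.
Rsad2: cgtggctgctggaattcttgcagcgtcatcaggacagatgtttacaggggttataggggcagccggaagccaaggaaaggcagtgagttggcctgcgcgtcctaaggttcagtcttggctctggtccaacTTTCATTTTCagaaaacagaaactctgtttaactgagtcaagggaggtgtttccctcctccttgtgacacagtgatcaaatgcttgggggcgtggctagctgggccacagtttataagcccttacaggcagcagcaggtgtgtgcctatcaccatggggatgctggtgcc
Isg15: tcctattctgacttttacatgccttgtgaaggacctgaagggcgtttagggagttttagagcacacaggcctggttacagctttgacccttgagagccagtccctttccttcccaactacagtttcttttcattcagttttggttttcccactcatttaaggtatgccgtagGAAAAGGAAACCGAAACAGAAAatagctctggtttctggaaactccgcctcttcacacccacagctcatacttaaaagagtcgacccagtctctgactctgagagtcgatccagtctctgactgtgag

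The core stood in 11 of 16 raised genes of the list with a window (68.8%) and in 7 of 10 that were not called (70.0%), against 3.99% of all windows. Rsad2 had 262, 108 and 276 CPM in FLASH and 193, 105 and 372 CPM in standard libraries, against 49.4, 73.0 and 19.7 CPM in non-irradiated ones (log2 change 2.23 ± 0.44, adjusted p = 0.00178). Oasl2, a relative of the oligoadenylate synthetases, had 265, 111 and 179 CPM in FLASH and 198, 76.1 and 177 CPM in standard libraries, against 34.3, 39.7 and 21.1 CPM in non-irradiated ones (log2 change 2.32 ± 0.37, adjusted p = 0.000243). Oas3, which makes the activator of RNase L, had 266, 79.5 and 139 CPM in FLASH and 155, 57.9 and 139.9 CPM in standard libraries, against 22.7, 35.5 and 13.1 CPM in non-irradiated ones (log2 change 2.47 ± 0.45, adjusted p = 0.000896). For all of these genes replicate 2 was the lowest library of both irradiated arms and still lay above every non-irradiated library. Mx1, an antiviral GTPase, had 64.3 to 139 CPM (median 92.6) in irradiated libraries, against 28.1, 34.9 and 26.1 CPM in non-irradiated ones (log2 change 1.60 ± 0.23, adjusted p = 7.83e-05), and Oas2 had 9.65 to 23.2 CPM (median 14.6) in irradiated libraries, against 1.86, 1.88 and 2.53 CPM in non-irradiated ones (log2 change 2.54 ± 0.33, adjusted p = 2.88e-05). Ifit3, an antiviral protein of the same response, had 26.5 to 132 CPM (median 70.3) in irradiated libraries, against 17.2, 25.0 and 6.76 CPM in non-irradiated ones (log2 change 2.01 ± 0.54, adjusted p = 0.017; call lost without non-irradiated replicate 3, adjusted p = 0.115). Reads of similar copies in the Oas and Ifit families may be split between genes, so single members are less certain.

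The list summed to 1687 to 4398 CPM in irradiated and 842 to 2264 CPM in non-irradiated libraries. How many members were called depended on the libraries. Without non-irradiated replicate 3 the list had 12 raised and 1 fallen member, and 17 were raised without non-irradiated replicate 1. Without the 5 discordant libraries 8 members rose, and with states from the labels alone 6 did.

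Lysosomal genes rose by smaller steps. Of 38 tested, 20 rose and 0 fell, with a median log2 change of 0.36. Ctsl, the protease cathepsin L, had 3389.5, 4393 and 3698 CPM in FLASH and 3246, 4022 and 4610.1 CPM in standard libraries, against 696, 1899 and 1359 CPM in non-irradiated ones (log2 change 1.67 ± 0.22, adjusted p = 2.88e-05). Ctsd, cathepsin D, had 16436 to 20318 CPM (median 18927) in irradiated libraries, against 9397, 9576 and 10011 CPM in non-irradiated ones (log2 change 0.95 ± 0.11, adjusted p = 9.72e-06). Lyz2, the lysozyme of macrophages, had 7831 to 9908 CPM (median 8703) in irradiated libraries, against 2969, 3974 and 3664 CPM in non-irradiated ones (log2 change 1.33 ± 0.19, adjusted p = 7.03e-05); its reads may be shared with the near-identical Lyz1. None of these genes had overlapping groups. From 16 to 23 members rose when 1 library was left out in turn, 13 without the 5 discordant libraries and 8 with states from the labels alone.

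Receptors for dead cells and modified lipoproteins rose in part. Of 23 scavenger and efferocytosis genes 7 rose and 0 fell. Gas6, the ligand that bridges dying cells to the receptor Mertk, had 136 to 181 CPM (median 152) in irradiated libraries, against 67.0, 47.8 and 55.5 CPM in non-irradiated ones (log2 change 1.45 ± 0.16, adjusted p = 4.98e-06). Mertk had 175 to 309.6 CPM (median 252) in irradiated libraries, against 114, 153 and 113 CPM in non-irradiated ones (log2 change 0.95 ± 0.15, adjusted p = 0.000139). Ligand and receptor were both higher in every irradiated library than in any non-irradiated one. Msr1, scavenger receptor A, had 628 to 679 CPM (median 659) in irradiated libraries, against 289, 499.6 and 265 CPM in non-irradiated ones (log2 change 0.96 ± 0.18, adjusted p = 0.00104), and Vsig4, a complement receptor of tissue macrophages, had 4.53 to 9.65 CPM (median 6.55) in irradiated libraries, against 1.28, 1.39 and 0.920 CPM in non-irradiated ones (log2 change 2.06 ± 0.47, adjusted p = 0.00573). The count of raised genes was 7 without the 5 discordant libraries and 3 with states from the labels alone.

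Of 23 core genes of macrophages 9 rose and 0 fell, with 5 rising without the 5 discordant libraries and 2 with states from the labels alone. Sirpa, the receptor for the CD47 signal, was among those raised (0.49 ± 0.09, adjusted p = 0.00103). Of 19 Fc receptor and phagocytosis genes 3 rose and 1 fell. Itgam, the integrin CD11b, had 901 to 1250.4 CPM (median 1007) in irradiated libraries, against 545, 700.0 and 543 CPM in non-irradiated ones (log2 change 0.80 ± 0.16, adjusted p = 0.00222). The activating receptor genes Fcgr3 (0.64 ± 0.13, adjusted p = 0.00212) and Fcgr4 (adjusted p = 0.017; call lost without non-irradiated replicate 3, adjusted p = 0.117) rose as well, and Fcrls fell (-0.86 ± 0.28, adjusted p = 0.0438; call lost when any of 6 of the 9 libraries was left out, adjusted p 0.0572 to 0.224). C3ar1 and C5ar2, receptors of complement fragments, were the 2 raised of 14 complement genes (0.66 ± 0.10, adjusted p = 8.5e-05 and 0.70 ± 0.13, adjusted p = 0.000878).

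Spp1, which encodes osteopontin, had 4326, 3875 and 2818 CPM in FLASH and 4197, 3363 and 3157 CPM in standard libraries, against 958, 934 and 647 CPM in non-irradiated ones. The lowest irradiated library held well over the highest non-irradiated value (log2 change 2.10 ± 0.23, adjusted p = 3.21e-06). Of 18 genes listed with Spp1, Gpnmb and Trem2 as genes of lipid-associated macrophages, 7 rose (Spp1, Ctsl, Ctsb, Syngr1, Fabp5, Gpnmb and Cd44) and 0 fell. Trem2 itself was not called (adjusted p = 0.924, limma). The count was 4 without non-irradiated replicate 1, 3 without non-irradiated replicate 2, 3 without the 5 discordant libraries and 2 with states from the labels alone.

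Of 23 lipid handling genes 7 rose and 1 fell. Fabp3, a fatty acid carrier, had 7.05 to 12.4 CPM (median 8.88) in irradiated libraries, against 3.49, 2.93 and 3.17 CPM in non-irradiated ones (log2 change 1.39 ± 0.20, adjusted p = 8.59e-05). Nr1h3, the oxysterol receptor LXR alpha, had 81.3 to 103 CPM (median 98.1) in irradiated libraries, against 58.4, 65.6 and 49.2 CPM in non-irradiated ones (log2 change 0.71 ± 0.15, adjusted p = 0.00249), and the groups were apart for both. Pltp, a phospholipid transfer protein, was the fallen one (-1.59 ± 0.42, adjusted p = 0.0154; call lost without non-irradiated replicate 3, adjusted p = 0.134). Of 23 genes of cholesterol and fatty acid synthesis Dhcr7 rose (0.56 ± 0.15, adjusted p = 0.0181, call lost without non-irradiated replicate 1 or non-irradiated replicate 3, adjusted p 0.0687 to 0.166). This is 4.35% of the list, below the 6.99% of all genes called higher.

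A part of the NRF2 antioxidant genes rose. Hmox1, haem oxygenase 1, had 1280.3, 1414 and 1384 CPM in FLASH and 1387, 1475 and 1500.1 CPM in standard libraries, against 745, 756 and 600.2 CPM in non-irradiated ones, with no overlap (log2 change 1.01 ± 0.15, adjusted p = 0.000126). Ftl1, the ferritin light chain, had 16514 to 18759 CPM (median 17743) in irradiated libraries, against 13401, 13531 and 13143 CPM in non-irradiated ones (log2 change 0.41 ± 0.07, adjusted p = 0.000311), and Fth1, the heavy chain, had 7957 to 9558 CPM (median 8613) in irradiated libraries, against 6050.3, 6391 and 5513 CPM in non-irradiated ones (log2 change 0.54 ± 0.11, adjusted p = 0.00258). These 3 belong to a list of 25, of which 7 rose and 0 fell. The count was 4 without non-irradiated replicate 1, 5 without the 5 discordant libraries and 3 with states from the labels alone.

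Surface and secreted signals changed gene by gene. Cd80, a costimulatory ligand, had 16.1, 16.6 and 17.1 CPM in FLASH and 15.0, 16.6 and 15.2 CPM in standard libraries, against 6.41, 5.30 and 7.04 CPM in non-irradiated ones, with narrow groups that lay apart (log2 change 1.31 ± 0.14, adjusted p = 3.27e-06). Lgals9, galectin 9, had 110.0 to 215 CPM (median 181) in irradiated libraries, against 74.5, 89.8 and 51.1 CPM in non-irradiated ones (log2 change 1.24 ± 0.23, adjusted p = 0.0011), and its receptor gene Havcr2 rose too (0.93 ± 0.26, adjusted p = 0.0201; call lost without non-irradiated replicate 1, non-irradiated replicate 2 or non-irradiated replicate 3, adjusted p 0.0547 to 0.0686). With Pdcd1lg2 lower, 3 of 13 costimulatory and checkpoint genes rose and 1 fell. Of 14 chemokine ligands Cxcl14 rose (1.19 ± 0.28, adjusted p = 0.00598), and Ppbp (-2.36 ± 0.48, adjusted p = 0.00227) and Ccl8 (-1.33 ± 0.42, adjusted p = 0.0369; call lost when any of 7 of the 9 libraries was left out, adjusted p 0.0547 to 0.0988) fell. Of 14 chemokine receptors Ccr3 (0.87 ± 0.23, adjusted p = 0.0145; call lost without non-irradiated replicate 2 or non-irradiated replicate 3, adjusted p 0.0601 to 0.061), Ccr1 (0.66 ± 0.21, adjusted p = 0.0384; call lost when any of 6 of the 9 libraries was left out, adjusted p 0.0619 to 0.183) and Cmklr1 (0.80 ± 0.26, adjusted p = 0.0496; call lost when any of 7 of the 9 libraries was left out, adjusted p 0.0556 to 0.159) rose. Ccr2, the receptor of inflammatory monocytes, fell (-1.24 ± 0.31, adjusted p = 0.0105; call lost without non-irradiated replicate 1, adjusted p = 0.0898). Of 23 LPS response genes only Tnfaip3, an inhibitor of NF-kappa B, was called, and it rose (0.51 ± 0.16, adjusted p = 0.0426, call lost when any of 7 of the 9 libraries was left out, adjusted p 0.0549 to 0.142). This is 4.35% of the list, below the 6.99% of all genes called higher.

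Growth factor, matrix and metabolic genes were mixed. Vegfa, the vascular growth factor, had 8.66 to 14.6 CPM (median 10.2) in irradiated libraries, against 18.3, 23.2 and 27.3 CPM in non-irradiated ones, without overlap (log2 change -1.06 ± 0.23, adjusted p = 0.0032). Timp3, an inhibitor of metalloproteinases, had 2.64 to 6.16 CPM (median 4.43) in irradiated libraries, against 24.4, 27.1 and 27.8 CPM in non-irradiated ones (log2 change -2.52 ± 0.50, adjusted p = 0.00204). Both lay lower in all irradiated libraries. Of 27 matrix and TGF-beta genes Tgfbr2 (0.78 ± 0.13, adjusted p = 0.000312), Igf1 (0.47 ± 0.10, adjusted p = 0.00206) and Timp2 rose, and Pdgfb (-1.13 ± 0.22, adjusted p = 0.00159) and Timp3 fell. These are 11.1% higher and 7.41% lower, beside 6.99% and 5.98% of all genes. Of 22 genes of glycolysis and hypoxia Pfkp (-0.56 ± 0.10, adjusted p = 0.000807), Vegfa and Pdk1 (-0.78 ± 0.23, adjusted p = 0.0284; call lost when any of 4 of the 9 libraries was left out, adjusted p 0.0667 to 0.149) fell. Of 25 nuclear genes of the respiratory chain, Atp5b fell (-0.32 ± 0.10, adjusted p = 0.0382, call lost when any of 7 of the 9 libraries was left out, adjusted p 0.0522 to 0.197). This is 4.0% of the list, below the 5.98% of all genes called lower. Of 21 immediate early genes the near-identical heat shock genes Hspa1a and Hspa1b rose (0.90 ± 0.29, adjusted p = 0.042 and 0.85 ± 0.28, adjusted p = 0.0448), and Ier2 (-0.89 ± 0.17, adjusted p = 0.00127), Fosl2 and Egr3 fell (-0.44 ± 0.13, adjusted p = 0.0232 and -0.79 ± 0.24, adjusted p = 0.0352). The calls of Hspa1a and Hspa1b were lost when any of 8 and 9 of the 9 libraries was left out, and those of Fosl2 and Egr3 without 4 and 6.

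Outside the lists, Prickle2, a planar cell polarity gene, had 11.9 to 16.7 CPM (median 15.3) in irradiated libraries, against 2.78, 3.98 and 2.44 CPM in non-irradiated ones (log2 change 2.10 ± 0.21, adjusted p = 8.21e-07), and Gfra2, a receptor of neurturin, had 0.451 to 3.99 CPM (median 1.21) in irradiated libraries, against 13.9, 10.4 and 14.3 CPM in non-irradiated ones (log2 change -2.70 ± 0.39, adjusted p = 8.2e-05). The groups did not overlap for either, which was a condition of naming these genes and is no further support. Tsc2, whose product restrains mTOR, had 11.2, 5.97 and 20.1 CPM in FLASH and 13.5, 12.9 and 6.79 CPM in standard libraries, against 0.398, 4.17 and 0 CPM in non-irradiated ones. It had the highest log2 change of the named genes, against scattered low non-irradiated values (log2 change 3.15 ± 0.74, adjusted p = 0.00645; call lost without non-irradiated replicate 3, adjusted p = 0.0516).

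Markers of other blood cells were called lower in irradiated libraries in part. Of 17 neutrophil markers 8 fell and 0 rose (median -1.34), with sums of 41.5 to 140.1 CPM in irradiated and 83.1 to 362 CPM in non-irradiated libraries. Mpo, myeloperoxidase, had 1.30, 0.779 and 1.05 CPM in FLASH and 0.856, 0.749 and 0.613 CPM in standard libraries, against 53.1, 26.3 and 2.07 CPM in non-irradiated ones. The non-irradiated libraries spread widely but stayed above the irradiated ones (log2 change -3.49 ± 0.69, adjusted p = 0.0018). The count of fallen neutrophil markers was 2 without non-irradiated replicate 1, 4 without non-irradiated replicate 2 and 5 without the 5 discordant libraries. Among B lineage markers, Ms4a1, which encodes CD20, averaged 0.105 ± 0.217 CPM in irradiated and 1.54 ± 0.601 CPM in non-irradiated libraries (SD; log2 change -1.77 ± 0.25, adjusted p = 6.05e-05), and 3 markers fell without non-irradiated replicate 1.

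Of 8 T and NK markers Gzmb, Gzma and Nkg7 fell and Cd4 rose (Nkg7 call lost when any of 7 of the 9 libraries was left out, adjusted p 0.0508 to 0.247; Cd4 call lost when any of 6 of the 9 libraries was left out, adjusted p 0.0529 to 0.269), with sums of 24.0 to 47.0 CPM in irradiated and 17.4 to 50.4 CPM in non-irradiated libraries. Cd4 made up a large part of the sums in irradiated libraries, averaging 31.1 CPM in FLASH and 29.9 CPM in standard against 12.2 CPM in non-irradiated libraries. The sums therefore say little about the other markers. The median log2 change of the list was -0.34, and 3 of its 8 members were above 0. Gzmb, granzyme B, had 0.119 to 0.856 CPM (median 0.455) in irradiated libraries, against 4.15, 14.2 and 2.07 CPM in non-irradiated ones (log2 change -2.59 ± 0.36, adjusted p = 5.62e-05). Of 5 mast cell and basophil markers Prss34, Mcpt8 and Cpa3 fell, but 0 fell without non-irradiated replicate 1 or 2; their sums were 1.29 to 4.01 CPM in irradiated and 6.12 to 14.0 CPM in non-irradiated libraries. Of 10 erythroid and megakaryocyte markers Itga2b and Ppbp fell and Epor rose (Epor call lost when any of 6 of the 9 libraries was left out, adjusted p 0.0639 to 0.189). Itga2b, the platelet integrin, had 0.225 to 0.873 CPM (median 0.566) in irradiated libraries, against 5.26, 5.67 and 3.50 CPM in non-irradiated ones (log2 change -2.33 ± 0.27, adjusted p = 7.15e-06). Of 14 monocyte markers Ccr2 and Ly6c2 fell, and of 10 stem and progenitor markers Myb and Cd34, while 0 and 0 fell without non-irradiated replicate 1. Of 5 eosinophil markers Ccr3 rose and Prg2 fell (Prg2 call lost without non-irradiated replicate 1, adjusted p = 0.176). Of 12 genes listed as stromal and osteoblast markers 0 were called. The smallest adjusted p among them was that of Pecam1 (0.0542, limma), which is not particular to stromal cells or osteoblasts. The part of these cells in the other results was not tested.

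Proliferation genes turned on non-irradiated replicate 3. Of 38 tested, 2 fell, Ccnb2 and Cdt1 (5.26%, below the 5.98% of all genes called lower). Only 1 of the 38 had a log2 change above 0, and the median was -0.83. Mki67 had 13.4, 26.8 and 25.0 CPM in FLASH and 17.0, 20.6 and 23.6 CPM in standard libraries, against 51.3, 83.1 and 14.7 CPM in non-irradiated ones. Non-irradiated replicate 3 lay within the irradiated range, and the gene was not called (log2 change -0.94 ± 0.37, adjusted p = 0.101). Without that library 35 of the 38 fell, while 965 of all 13297 genes tested were called lower. Without non-irradiated replicate 1 or 2, FLASH replicate 1 or standard replicate 1 the count was 0, and without standard replicate 2 it was 1.

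Transcripts often read as measures of RNA quality moved with irradiation. Of 13 mitochondrially encoded genes 7 rose and 0 fell, and mt-Nd5, a subunit of complex I, had 865 to 1053 CPM (median 1002) in irradiated libraries, against 533, 696 and 785 CPM in non-irradiated ones (log2 change 0.57 ± 0.10, adjusted p = 0.000839). Of 30 ribosomal protein genes 8 fell and 0 rose, and Rpl14 had 207 to 273 CPM (median 258) in irradiated libraries, against 340.5, 321 and 358 CPM in non-irradiated ones (log2 change -0.47 ± 0.10, adjusted p = 0.00405). Neither gene had overlapping groups. Without non-irradiated replicate 1 the counts were 2 and 2, and the ribosomal count was 4 without FLASH replicate 1 and 5 without standard replicate 3. With states from the labels alone the counts were 0 mitochondrially encoded and 2 ribosomal protein genes, and without the 5 discordant libraries 4 and 2. Their part in the other results was not tested.

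FLASH and standard irradiation were also compared directly. FLASH macrophages differed from non-irradiated ones in 1275 genes (9.59%; 705 higher, 570 lower) and standard macrophages in 971 (7.30%; 542 higher, 429 lower). Both comparisons share the same 3 non-irradiated libraries. The FLASH count was 565 without FLASH replicate 1 and 700 without non-irradiated replicate 1, and the standard count was 476 without standard replicate 3, 536 without standard replicate 1 and 555 without non-irradiated replicate 1. FLASH differed from standard in 1 gene (0.00752%), and in 655 of 13297 genes at an unadjusted p below 0.05 (limma). That gene, Zfp462, a zinc finger gene that is named here after its values were seen, had 11.2, 12.5 and 7.57 CPM in FLASH libraries and 0.631, 0.957 and 0.963 CPM in standard ones, beside 1.68, 1.20 and 0.874 CPM in non-irradiated ones. The FLASH and standard libraries lay far apart for Zfp462 (adjusted p = 0.00105, limma). With states from the labels alone 0 genes differed between FLASH and standard, and 227 had an unadjusted p below 0.05 (limma). Without the 5 discordant libraries the numbers were 0 and 612. A share of 0.05 of the 13297 genes would pass the unadjusted threshold if no gene differed. The unadjusted counts are therefore no sign of differences between the arms.

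For the named genes the arms are given side by side. The log2 change from non-irradiated cells was -3.79 in FLASH and -3.69 in standard libraries for H2-Ab1, and the difference between the arms was not called (-0.11, adjusted p = 1). For Retnla the changes were -1.51 and -1.31 (difference -0.20, adjusted p = 1), and for Mgl2 -1.86 and -1.55 (difference -0.31, adjusted p = 1). Phlda3 changed by 1.62 in FLASH and 1.61 in standard libraries, and Oasl2 by 2.49 and 2.16. A p that misses the threshold does not show that the arms act alike.

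The change with irradiation in the IL-4 state was then set against that in the other states, whose 6 irradiated libraries each were sorted by the same rule. The difference to the control state was called for 46 genes (0.346%; 27 with a higher change in the IL-4 state, 0.203%, and 19 with a lower one) and the difference to the LPS state for 1369 (10.3%; 760 higher, 5.72%, and 609 lower). These numbers were 6 and 534 without the 5 discordant libraries, and 6 and 356 with states from the labels alone. Without non-irradiated replicate 1 of the IL-4 state the difference to the LPS state was called for 860 genes, and without non-irradiated replicate 3 of the LPS state for 892. The difference to the control state was called for 17 genes without non-irradiated replicate 2 of the control state and for 10 without its replicate 3.

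Ccl24 changed by -2.83 in the IL-4 state, -0.07 in the LPS state and -0.58 in the control state, and both differences were called (to control -2.25, adjusted p = 0.0273; to LPS -2.76, adjusted p = 0.000622). The call against control was lost without non-irradiated replicate 1 or 2 of the IL-4 state or replicate 3 of the control state (adjusted p 0.0532 to 0.091) and without the 5 discordant libraries (adjusted p = 0.0898, limma), while the call against LPS was kept with any of the 18 libraries it compares left out and without the 5 discordant ones. Ocstamp changed by -1.76 in the IL-4 state, 0.08 in the LPS state and 0.07 in the control state (to control -1.82, adjusted p = 0.00864, and to LPS -1.84, adjusted p = 0.000552). Without irradiation, Ccl24 averaged 27.3 CPM in the IL-4, 0.495 CPM in the LPS and 0.772 CPM in the control state. Ocstamp averaged 167, 1.57 and 1.57 CPM in the same order. Such low levels leave little room to fall, so these differences cannot tell whether irradiation lowers the 2 genes only in the IL-4 state. Retnla changed by -1.41 in the IL-4 state, -0.27 in the LPS state and -0.06 in the control state, but neither difference was called (to control -1.35, adjusted p = 0.134; to LPS -1.14, adjusted p = 0.0609). Mgl2 changed by -1.71 in the IL-4 state, -0.10 in the LPS state and -1.31 in the control state (to control -0.40, adjusted p = 0.814; to LPS -1.60, adjusted p = 0.0401). Its call against LPS was lost when any of 12 of the 18 libraries of these states was left out (adjusted p 0.0513 to 0.124, limma). Without irradiation, Mgl2 averaged 648 CPM in the IL-4, 3.87 CPM in the LPS and 12.8 CPM in the control state. Retnla averaged 3321, 24.8 and 21.1 CPM in the same order. The level of Mgl2 in the LPS state left little room to fall, so this difference cannot tell whether irradiation acts there.

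H2-Ab1 was lower after irradiation in each state, by -3.74 in the IL-4 state, -2.17 in the LPS state and -4.85 in the control state. The difference was called against the LPS state (-1.57, adjusted p = 0.0448) and not against the control state (1.11, adjusted p = 0.389), and the call against LPS was lost when any of 14 of the 18 libraries was left out (adjusted p 0.0501 to 0.149, limma). Phlda3 rose in each state, by 1.62 in the IL-4 state, 2.27 in the LPS state and 2.31 in the control state, and less in the IL-4 than in the LPS state (-0.66, adjusted p = 0.0101). Oasl2 changed by 2.32 in the IL-4 state, -0.44 in the LPS state and 0.69 in the control state, with a difference to LPS of 2.77, adjusted p = 0.0024, and to control of 1.63, adjusted p = 0.202. Of 36 interferon-stimulated genes, 23 had a called higher change in the IL-4 than in the LPS state, beside 5.72% of all genes. In the difference to the control state 0 were called. Without irradiation, Oasl2 averaged 31.7 CPM in the IL-4, 579 CPM in the LPS and 114 CPM in the control state. Rsad2 averaged 47.4, 2531 and 99.1 CPM in the same order. Whether such high levels in the LPS state limit a further rise was not tested. Mertk changed by 0.95 in the IL-4 state, -0.63 in the LPS state and 0.54 in the control state (to LPS 1.57, adjusted p = 8.01e-05). Fcgr2b, the inhibitory Fc receptor, changed by 0.45 in the IL-4 state, -1.04 in the LPS state and -1.77 in the control state, and both differences were called (to control 2.23, adjusted p = 0.00748; to LPS 1.49, adjusted p = 0.00852). Both calls were kept with each library left out in turn and lost without the 5 discordant libraries.

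**Figure D3:**
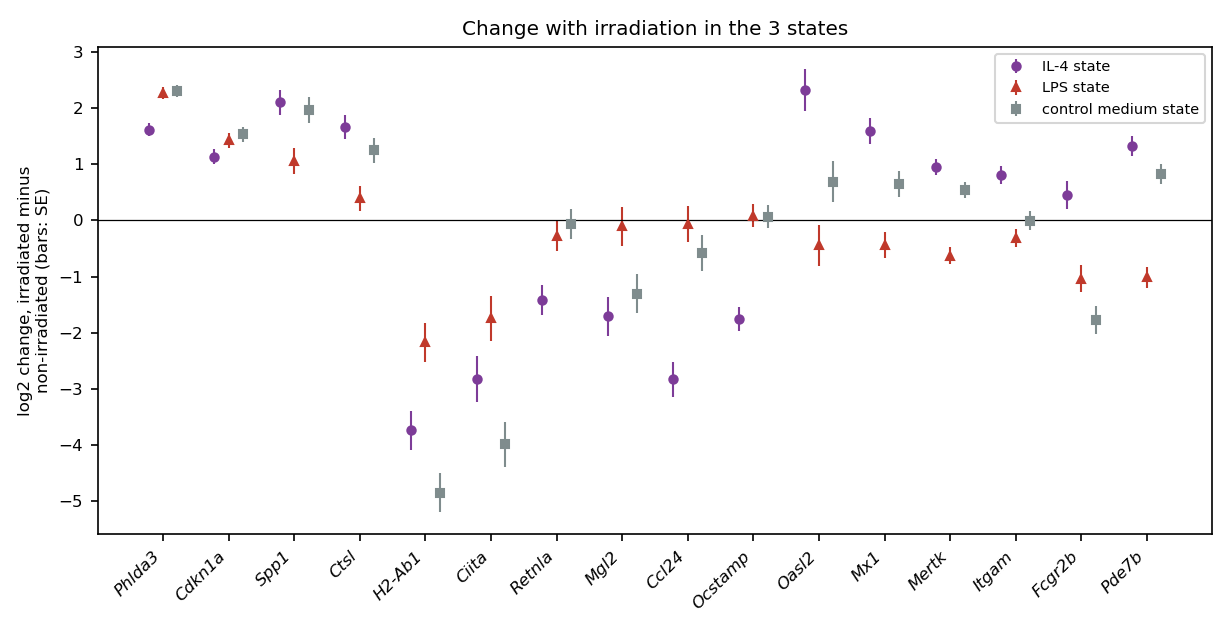
Log2 change with irradiation (irradiated minus non-irradiated; bars are SE) of 16 genes in the IL-4, LPS and control-medium states, with irradiated libraries sorted by Irg1 and Arg1. Phlda3 and Cdkn1a lie above 0 and H2-Ab1 and Ciita below 0 in all 3 states, while Ccl24 and Ocstamp lie lower in the IL-4 state than in the other states. In those other states both genes are near the lower end of detection without irradiation and have little room to fall.

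Taking the states from the labels alone changed the result. The 6 irradiated libraries labelled M2 then included both that were in the LPS state by value, and 399 genes were called (190 higher, 1.43% of genes tested, and 209 lower, 1.57%), of which 389 were also called, in the same direction, with states by value. Of the 122 named genes called with states by value 51 were called in the same direction with states from the labels. The same 7 class II genes fell, and 8 of the 9 raised p53 targets were called again. H2-Ab1 gave -4.21, adjusted p = 0.000123 and Phlda3 1.39, adjusted p = 0.000957 (log2 changes, limma). The 2 libraries in question had 17.7 CPM in FLASH and 20.2 CPM in standard replicate 1 of Retnla and 2.04 CPM in FLASH and 4.39 CPM in standard replicate 1 of Mgl2, far below every library of the IL-4 state. With them the log2 change of Retnla was further from 0 but was not called (-3.29, adjusted p = 0.268), and the same held for Mgl2 (-3.47, adjusted p = 0.22). Chil3 (-1.76, adjusted p = 0.64) and Mrc1 (-0.78, adjusted p = 0.724) had negative changes in place of positive ones and were not called either way.

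With the 4 irradiated libraries on which label and value agreed and without all 5 discordant ones, 918 genes were called (6.90%; 510 higher, 408 lower). Of these, 896 were also called in the same direction with all libraries, and 86 of the 122 named genes were among them.

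**Figure D4:**
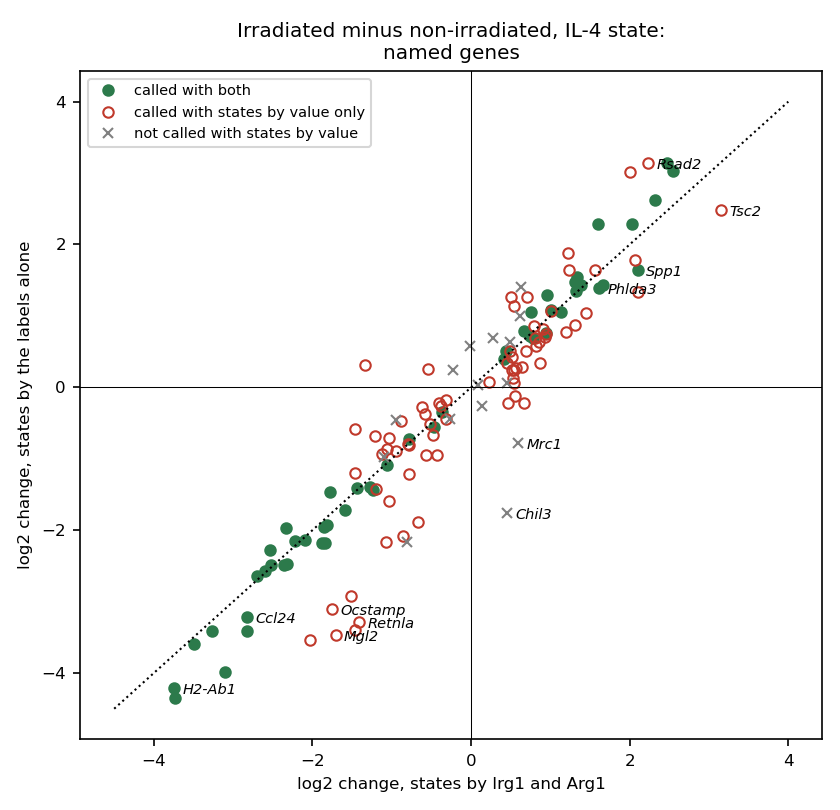
Log2 change of the named genes, irradiated minus non-irradiated, with states by Irg1 and Arg1 (horizontal) and by the labels alone (vertical); green points are called with both, open red points with states by value only, and grey crosses are not called with states by value. H2-Ab1 and Phlda3 lie near equal values, Retnla and Mgl2 lie further below 0 by the labels and are not called, and Chil3 and Mrc1 change sign.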

How the data were processed

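Bulk RNA was sequenced from 27 libraries of mouse bone-marrow-derived macrophages. The deposited values are a scaled signal per gene, close to CPM (counts relative to library depth): per the submitters' processing notes, reads were quantified with kallisto 0.46.1 and handled with edgeR 3.36.0 in R 4.0.5. The only genome build these notes name is GRCh38, a human one. Column sums ran from 929400 to 1072727, and 96.6% to 98.2% of the values above 0 were whole multiples of 1 read within 0.01 read, which gave the depth; of the low values 87.0% to 93.7% were whole, and no count test was run. The depth of 20.7 to 25.8 M reads limits the precision of genes near 1 CPM. Of 19070 entries 1 had no symbol and was left out.

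For this report, log2(CPM + 0.5) was fitted for genes reaching 1 CPM in 3 or more libraries with limma 3.58.1 (R 4.3.3; intensity trend, robust) over all 27 libraries in 9 groups of arm and state, with two-sided tests and Benjamini-Hochberg adjustment over all 13297 genes; calls are at an adjusted p below 0.05. The fit was tested on simulated data.

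The libraries compared, the gene lists and the genes were chosen with earlier results of these data known. Named were the 10 highest and 10 lowest called changes among genes of at least 5 CPM without overlap, up to 3 called members per list and direction by smallest p, a fixed set of markers, and the 5 clearest genes of each difference between states. Promoters came from RefSeq. Alternatives were states by the labels alone, leaving out libraries, other pseudocounts, filters and scaling, no intensity trend, fewer libraries in the fit and a replicate block.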

Additional observations from a re-analysis of the deposited data

Results flagged for a closer look

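In 15 of the 137 named genes 1 of the 6 irradiated libraries lay apart from the others by the gap between neighbouring values relative to the whole range; chance gives such a gap in about 1 of 20 groups. FLASH replicate 1, labelled M0, was the highest for the neutrophil genes Ngp (25.1 CPM) and Ctsg (0.474 CPM), the eosinophil gene Prg2 (1.34 CPM) and Arel1 (89.2 CPM). FLASH replicate 2 was the highest for Rnase2a (147 CPM) and Emr1 (1334 CPM). FLASH replicate 3 was the highest for Ppbp (2.599 CPM), the B cell genes Pax5 (0.638 CPM) and Ms4a1 (0.547 CPM), and Prss34 (0.182 CPM). Standard replicate 1, labelled M1, was the highest for H2-Eb1 (0.946 CPM), Myb (1.53 CPM) and Mcpt8 (0.406 CPM). Standard replicate 2 was the lowest for Igf1 (1407 CPM) and mt-Nd5 (865 CPM).

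The change with irradiation differed between the IL-4 state and another state in several named genes, by a test of the difference itself (limma, adjusted over all genes; IL-4 state minus the other, on the log2 scale). Lower changes in the IL-4 state than in both others were those of Ccl24 (-2.25, adjusted p = 0.0273 to control; -2.76, adjusted p = 0.000622 to LPS), Ocstamp (-1.82, adjusted p = 0.00864; -1.84, adjusted p = 0.000552) and St3gal5, which makes the ganglioside GM3 (-1.07, adjusted p = 0.0189; -0.72, adjusted p = 0.0188). Ccl24 and Ocstamp were near the lower end of detection in the other states even without irradiation, where they had little room to fall. Higher changes in the IL-4 state than in both others were those of Fcgr2b (2.23, adjusted p = 0.00748; 1.49, adjusted p = 0.00852) and Wdfy2 (0.62, adjusted p = 0.00596; 0.66, adjusted p = 0.000182). Dtx4, a Notch pathway ubiquitin ligase gene, had a higher change than in the control state (0.63, adjusted p = 0.00864).

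Against the LPS state only, the IL-4 state had lower changes of H2-Ab1 (-1.57, adjusted p = 0.0448), Mgl2 (-1.60, adjusted p = 0.0401), Phlda3 (-0.66, adjusted p = 0.0101), Trp53 (-0.53, adjusted p = 0.00557) and the corepressor gene Tle1 (-1.91, adjusted p = 7.82e-06). It had higher changes of Spp1 (1.05, adjusted p = 0.0393), Mrc1 (1.18, adjusted p = 0.012), Il4ra (0.565, adjusted p = 0.0199), the phosphodiesterase gene Pde7b (2.34, adjusted p = 1.32e-05), Zc3h12d (1.40, adjusted p = 1.79e-06), Arel1 (1.14, adjusted p = 7.82e-06) and Anxa6 (1.04, adjusted p = 1.55e-05). Pde7b changed by 1.32 in the IL-4 state, -1.02 in the LPS state and 0.83 in the control state, and Tle1 by -0.78 in the IL-4 state, 1.13 in the LPS state and -0.47 in the control state. Without irradiation, Mgl2 averaged 3.87 CPM in the LPS state, which left it little room to fall. Which irradiated libraries enter each state was set by Irg1 and Arg1, and the cause of these differences was not tested.

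The calls against the control state named here were lost with states from the labels alone. So were the calls against the LPS state of Spp1, H2-Ab1, Ocstamp, Trp53, Mgl2, Mrc1, Il4ra, Wdfy2, Fcgr2b, St3gal5 and Anxa6. Those of Ccl24, Phlda3, Zc3h12d, Arel1, Tle1 and Pde7b against the LPS state were kept. Without the 5 discordant libraries the calls against LPS of Spp1, H2-Ab1, Mgl2, Mrc1, Il4ra, Fcgr2b and St3gal5 were lost. The calls of Ccl24 and Fcgr2b against control were lost there too. Leaving out 1 of the 18 libraries compared in turn ended the call against the LPS state for H2-Ab1 in 14 cases, for Mgl2 and Spp1 in 12 each, for Il4ra and St3gal5 in 2 each and for Mrc1 in 1. It ended the call against the control state for Ccl24 in 3 cases and for St3gal5 in 1. With states from the labels the difference turned its sign, uncalled, for Wdfy2 against control (-0.04) and for Mrc1 (-1.35) and St3gal5 (0.66) against LPS.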

How the results depend on the processing

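Counts of called genes are given for irradiated, FLASH and standard against non-irradiated, for FLASH against standard, and for the IL-4 state against the control and the LPS state, in this order. With states from the labels alone they were 399, 146, 180, 0, 6 and 356, and without the 5 discordant libraries 918, 436, 449, 0, 6 and 534. Fitting only the compared libraries gave 1072, 683, 481 and 9 for the first 4. Chosen after seeing the data, a fit of the 9 libraries labelled M2 alone gave 14, 2, 2 and 0, and one of the compared libraries without the pair carrying another label 315, 100, 123 and 0. These fits have fewer samples. A pseudocount of 0.1 gave 28 for the difference to the control state. Leaving out 1 library in turn gave 955 to 1777, 565 to 1500, 476 to 1128, 1 to 3, 10 to 63, and 860 to 1616.

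Median-of-ratios scaling left all 137 named genes with their direction and call, a pseudocount of 1 lost 3 calls, one of 0.1 lost 7, no filter lost 15, no intensity trend lost 10, the replicate block lost 20 and fitting only the compared libraries lost 28. Fitting only the compared libraries also gained 3 calls. With states from the labels 66 calls were lost and 1 was gained, and without the 5 discordant libraries 36 were lost and 1 was gained. Signs turned with states from the labels, in both such fits, for Ccl8 (0.31), Ccr1 (-0.22), Chil3 (-1.76), Dhcr7 (-0.13), H2-K1 (0.58), Igf1 (-0.21), Il4ra (0.24), Mrc1 (-0.78), St3gal5 (0.25) and Wdfy2 (-0.26). Leaving out 1 library in turn, H2-K1 ran from -0.093 to 0.057 and was above 0 without FLASH replicate 2 (0.02) or standard replicate 2. Stat6 was -0.0199 without non-irradiated replicate 2. The causes were not tested.

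Same-numbered libraries of different arms did not deviate together (correlations of -0.24 to -0.04), and what the tag they share in the titles stands for is not given, so the samples were not treated as pairs. With the replicate number as a block the counts were 1352, 911, 658, 1, 9 and 970.

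Depth limits markers near 0 CPM, and 3 libraries in a group limit the precision of every comparison.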

Other observations

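The libraries labelled M2 that were in the LPS state by value are set beside the non-irradiated libraries labelled M2 here, which differ from them in both irradiation and state. Phlda3 had 91.9 CPM in FLASH and 85.6 CPM in standard replicate 1, against 44.5, 46.8 and 43.5 CPM in the non-irradiated libraries labelled M2. H2-Ab1 had 41.4 CPM in FLASH and 28.3 CPM in standard replicate 1, against 1126, 774 and 1069 CPM in the non-irradiated ones. Spp1 had 1416 CPM in FLASH and 1879.6 CPM in standard replicate 1, against 958, 934 and 647 CPM in the non-irradiated ones. Ctsl had 2091 CPM in FLASH and 1947 CPM in standard replicate 1, against 696, 1899 and 1359 CPM in the non-irradiated ones. Chil3, an IL-4-induced gene, had 63.4 CPM in FLASH and 79.0 CPM in standard replicate 1, against 3716, 4809.9 and 5771 CPM in the non-irradiated ones, and Mrc1 had 75.7 CPM in FLASH and 88.1 CPM in standard replicate 1, against 1083, 1021 and 920.0 CPM in the non-irradiated ones. These libraries belong to no IL-4-state group by value and were not tested here.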
